A study of Homo sapiens with 6 samples.

Results

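RNA of HCT116 stem cells (HCT116SCs) was read out for MYC, the proteins that share its dimer partners, and the nucleolar factors that make ribosomes. The group held 51 genes, taken by name from the 58735 genes of the deposited expression table, and was divided by role. It comprised 8 genes of the MYC network, 6 of RNA polymerase I and its initiation factors, 9 of small nucleolar ribonucleoproteins (snoRNPs), 11 of small subunit maturation, 12 of large subunit maturation and 5 multifunctional nucleolar proteins.

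HCT116 is an established human colorectal cancer line, and HCT116SCs are its CD44+CD326+ cells, enriched with antibody-coated magnetic beads and grown as spheres without serum, with EGF, bFGF and B27. Dissociated spheres received siRNA in liposomes, either a negative control siRNA (NC, n = 3 libraries, genotype labelled WT) or an siRNA against PSCA (siPSCA, n = 3 libraries, genotype labelled PSCA knockdown), and RNA was harvested after 48 h in both groups. PSCA is a small surface protein anchored in the membrane by a lipid. All libraries come from a single line, which of the designed PSCA siRNAs was sequenced is not given in the sources used here, and 2 siPSCA libraries (2 and 3) carry another cell line number in the title than in their other labels. Nothing states that the libraries of a group were separate cultures, so the p-values measure the spread between these samples, which may be technical.

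MYC is a transcription factor that binds DNA only as a dimer with MAX, preferentially at the E-box CACGTG. MXD1, MXD3, MXD4, MNT and MGA also pair with MAX and occupy the same sites, mostly as repressors, and MLX joins this network with partners that sense glucose. MYC is known for driving ribosome production, through rRNA transcription by RNA polymerase I, through the snoRNPs that modify rRNA, and through the factors that cut and assemble the subunits. In colorectal cancer MYC lies downstream of WNT signaling. The comparison asked whether MYC RNA differed between the groups, and whether the RNA of the nucleolar genes moved in the same direction.

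The values are FPKM, in which the reads of a gene are scaled by its length and by the depth of the library. The length covers all annotated exons of a gene, so levels of different genes compare only roughly on this scale. Reads on genes numbered between 16099716 and 17302219 per library, and 1 read per kilobase of gene was worth 0.0549 to 0.0595 FPKM. PSCA itself had 4, 12 and 15 reads in NC 1, NC 2 and NC 3 and 9, 9 and 7 reads in siPSCA 1, siPSCA 2 and siPSCA 3 (log2 fold change -0.07 ± 0.12 SE, limma without a minimum level adjusted p = 0.728), so its RNA did not tell the groups apart at this depth. NC 3 stood apart: across the tested genes of the group, its median distance from the mean of NC 1 and NC 2 was 0.198 on the log2 scale, against 0.0641 between NC 1 and NC 2. The summed FPKM of 9 colorectal epithelial markers was 807 to 868 in NC and 861 to 890 in siPSCA, with CDX1 listed at 0 in all libraries. That of 8 fibroblast markers was 4.34 to 6.49 and 7.06 to 7.51, most of it COL1A1, with LUM at 0, and leukocyte and endothelial markers each summed to at most 0.565, with CD3E and CD68 at 0. The part of these markers in the results was not tested.

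In siPSCA, MYC RNA was higher, and more of the nucleolar genes rose than fell. Of the 51 genes 50 had a mean FPKM of at least 1 and were tested. Of these 34 passed an adjusted p of 0.05 in limma (68%), 26 of them higher (52%) and 8 lower (16%) in siPSCA, whereas of all 13796 genes tested 50.7% passed, 26.6% higher and 24.2% lower. The median log2 fold change (siPSCA minus NC, on log2(FPKM + 1) here and throughout) was 0.22 for the group, with a range of -0.75 to 1.30, and 0.01 for all genes. In 40 of the 50 genes the siPSCA and NC values did not overlap, 30 with siPSCA above and 10 with siPSCA below, against 64.5% of all genes, 33.7% above and 30.8% below. In bulk RNA, fewer cells of a type and less RNA per cell cannot be told apart.

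Fold changes in these libraries followed the GC content of the transcripts, so values with a smooth trend on GC content and length removed from every library are given beside those on FPKM. With this trend removed 25 genes of the group were higher and 4 lower, against 39.6% called, 21.2% higher and 18.4% lower among all genes, and the median was 0.14 beside 0.02 for all genes. The genes called both before and after numbered 19 higher and 4 lower.

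**Figure D1:**
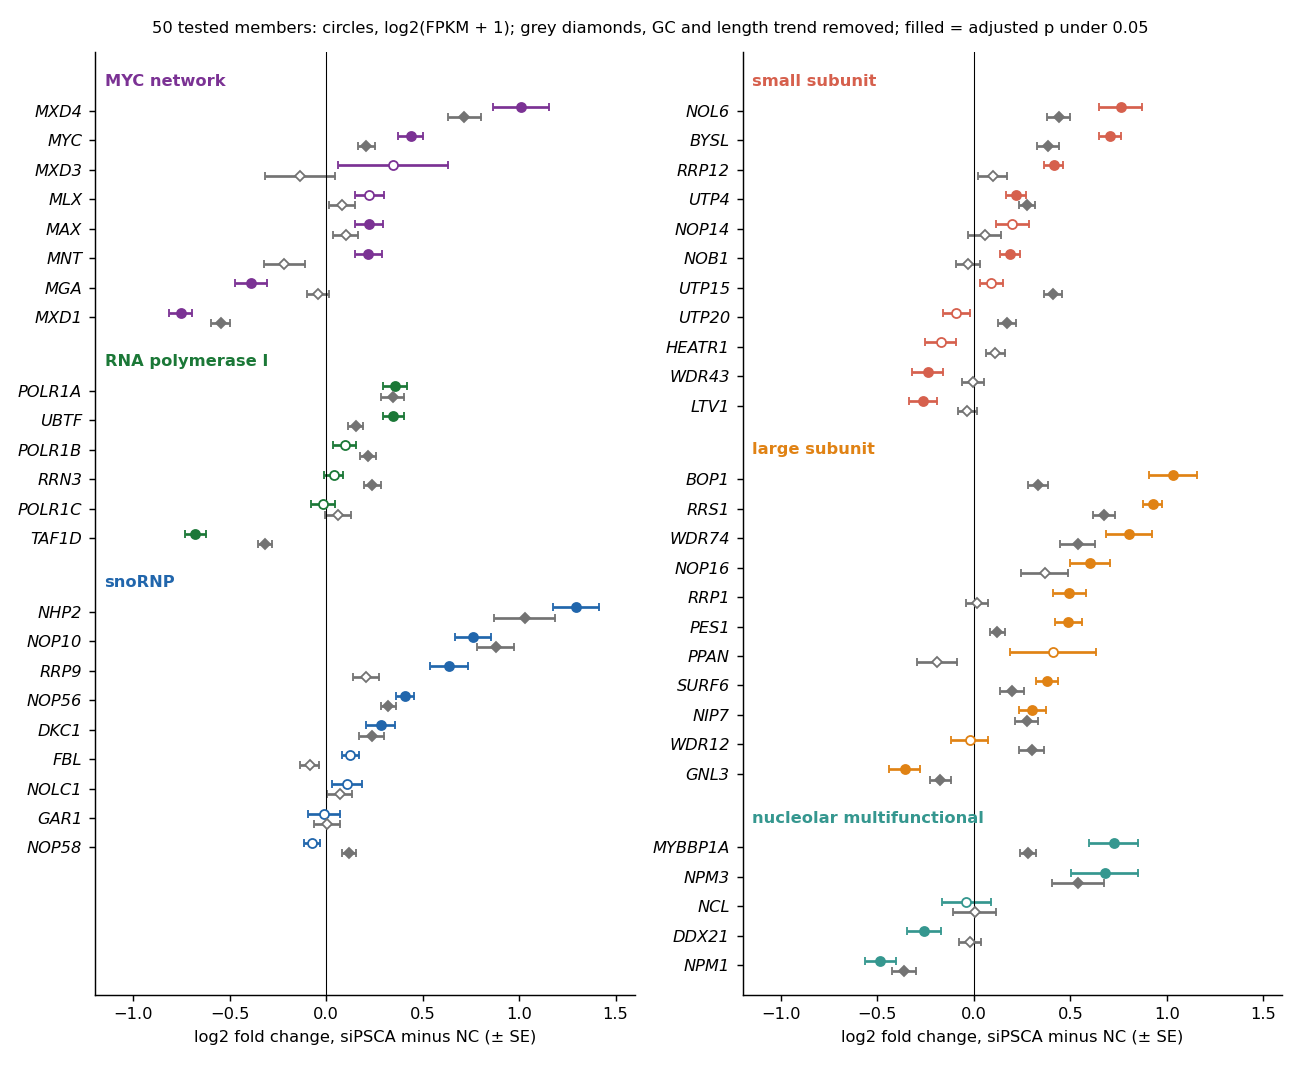
Log2 fold change (siPSCA minus NC, horizontal axis) with its standard error for the 50 tested genes, in panels by role. Colored circles are values on log2(FPKM + 1) and grey diamonds values with the GC and length trend removed, filled where the adjusted p from limma was under 0.05. The circles run from -0.75 for MXD1 to 1.30 for NHP2, and most diamonds lie nearer to 0 than their circles.

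MYC (ENSG00000136997) lies on the plus strand of chromosome 8 of GRCh38, from 127735434 to 127741434. Its FPKM was 44.0, 44.3 and 38.7 in NC 1 to NC 3 and 58.3, 56.0 and 58.5 in siPSCA 1 to siPSCA 3. Every siPSCA library lay above every NC library. The mean rose from 42.3 ± 3.15 (SD, n = 3) to 57.6 ± 1.37 (SD, n = 3), a rise of 36.2% with a log2 fold change of 0.44 ± 0.06 SE, limma adjusted p = 0.00327). Permuting the libraries exactly gave a 2-sided p = 0.1, the smallest p that 3 libraries against 3 allow. Without NC 3, the lowest control, the log2 fold change was 0.38, and with the GC and length trend removed it was 0.21 (adjusted p = 0.0113 from limma). MYC kept its call in each of these fits, but its log2 fold change lay under 0.5. These libraries hold RNA only. By Western blot, the paper reports a decrease of c-Myc protein in HCT116SCs after PSCA siRNA, which is another measure than RNA.

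MAX, the obligate partner of MYC, had an FPKM of 7.04, 8.30 and 7.68 in NC and 8.79, 9.62 and 8.92 in siPSCA, so that the groups did not overlap (log2 fold change 0.22 ± 0.07 SE, limma adjusted p = 0.0408). The call was lost with the GC trend removed (0.10, adjusted p = 0.272), without NC 3 and in 4 more of the fits that left out one library. The ratio of MYC to MAX FPKM was 6.25, 5.33 and 5.04 in NC and 6.63, 5.83 and 6.56 in siPSCA, overlapping between the groups (exact permutation test, p = 0.2).

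The antagonists of MYC moved in opposite directions. MXD1, which replaces MYC on MAX in differentiating cells, fell from an FPKM of 5.58, 5.85 and 5.99 to 2.86, 3.09 and 3.15, with no overlap (log2 fold change -0.75 ± 0.06 SE, limma adjusted p = 0.000712). MXD4, a relative of the same type, rose from 8.71, 8.63 and 5.80 to 16.7, 16.6 and 15.6 (log2 fold change 1.01 ± 0.14 SE, limma adjusted p = 0.00291). NC 3 was the lowest control for MXD4, and without it the log2 fold change was 0.84. Both genes kept their call with the GC trend removed, at -0.55 for MXD1 and 0.72 for MXD4. The FPKM ratio of MXD4 to MXD1 was 1.56, 1.48 and 0.969 in NC and 5.86, 5.38 and 4.94 in siPSCA. MXD4 thus had the higher FPKM of the pair in each siPSCA library, and in all controls but NC 3. MXD1 lies on chromosome 2 from 69897688 to 69942945 and MXD4 on chromosome 4 from 2247432 to 2262294.

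The other dimer partners changed less. MNT, a ubiquitous repressor in this network, had 2.50, 2.72 and 2.47 in NC and 3.34, 3.06 and 3.03 in siPSCA (log2 fold change 0.22, limma adjusted p = 0.0379), but its log2 fold change was -0.22 with the GC trend removed (adjusted p = 0.145). MGA, a large protein with a T-box domain as well, had 6.23, 6.73 and 7.86 in NC and 4.96, 5.04 and 5.10 in siPSCA (log2 fold change -0.39, limma adjusted p = 0.0106), which was -0.04 with the trend removed. MLX had 13.4, 13.1 and 11.2 in NC and 15.03, 14.23 and 15.09 in siPSCA and narrowly missed the threshold (log2 fold change 0.22, limma adjusted p = 0.0507), which it passed without NC 3 at 0.15, and with the trend removed it was at 0.08. MXD3 had 3.66, 3.799 and 1.37 in NC and 4.46, 3.71 and 3.24 in siPSCA, with overlapping groups and NC 3 far below the rest (log2 fold change 0.35 ± 0.28 SE, limma adjusted p = 0.341). Its exons share 22.47% of their bases with PRELID1 on the opposite strand and 17.97% with RAB24, and the sources used here do not state whether counting used strand.

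**Figure D2:**
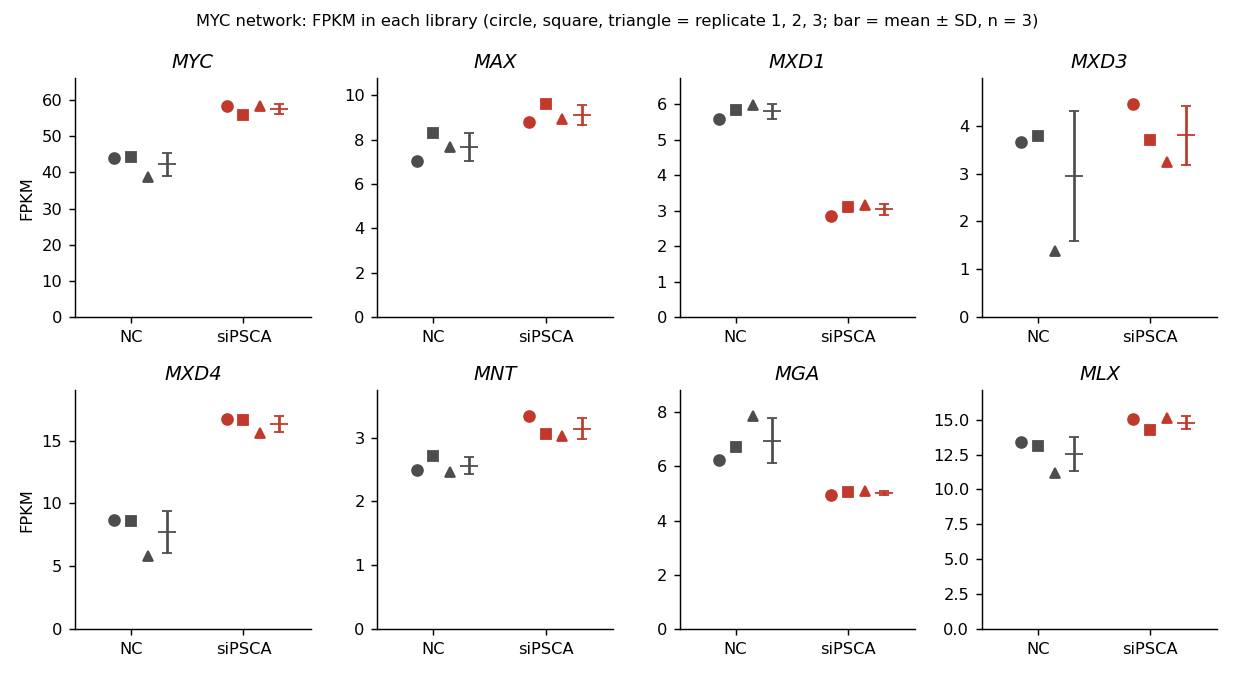
FPKM (vertical axis, from 0) of the 8 MYC network genes in the 3 NC libraries (grey) and 3 siPSCA libraries (red). Circles, squares and triangles are replicates 1, 2 and 3, which are not known to be paired between the groups, and bars are the mean ± SD. The groups are apart in all panels but MXD3, with siPSCA below NC for MXD1 and MGA.

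The promoters of the group were searched for the E-box CACGTG, which reads the same on both strands, in the 300 bases from 250 before to 50 after each gene start (RefSeq, GRCh38.p14). A promoter was at hand for 45 genes, of which 17 held it (37.8%), against 7.26% of all 35116 promoters of this length and 10.4% of the 9098 promoters of tested genes. A match is a description of letters and says nothing of whether MYC or a competitor was bound. RefSeq and GENCODE starts differ for some genes. Windows of 30 bases from 5 of these promoters are shown on the strand of each gene, with the E-box in capitals, because they lie before the start of the gene in both annotations.
MXD4: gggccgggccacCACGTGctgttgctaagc
MNT: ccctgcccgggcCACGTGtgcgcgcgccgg
MLX: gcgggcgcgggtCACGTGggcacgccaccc
NOP10: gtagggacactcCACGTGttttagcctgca
UTP20: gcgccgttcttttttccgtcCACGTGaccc

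These windows lie at chr4:2262330-2262359 on the minus strand for MXD4, chr17:2401236-2401265 on the minus strand for MNT and chr17:42567038-42567067 on the plus strand for MLX. That of NOP10 lies at chr15:34343289-34343318 on the minus strand and that of UTP20 at chr12:101280075-101280104 on the plus strand. NOP10 was the gene of the group with 2 matches. Genes with and without an E-box both held more rises than falls, and the difference between them was not tested. Of 16 tested with one, 10 rose and 2 fell with a median log2 fold change of 0.30, and of 28 tested without one, 12 rose and 6 fell with a median of 0.14. With the GC trend removed these medians were 0.19 and 0.11. Among the 9098 tested genes with a promoter at hand the median was 0.05 with an E-box and 0.03 without. Of all genes tested, with or without a promoter at hand, 26.6% rose and 24.2% fell.

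Outside the MYC network, 42 of 43 nucleolar genes were tested. Of these 22 rose as MYC did (52.4%), 6 fell (14.3%) and 14 did not pass, with a median log2 fold change of 0.25. The mean level of the 42 genes, on log2(FPKM + 1) and relative to the mean of the NC libraries, was -0.0134, 0.00212 and 0.0113 in NC 1 to NC 3 and 0.286, 0.267 and 0.244 in siPSCA 1 to siPSCA 3. On this average the siPSCA libraries lay close together and apart from all controls, NC 3 included. With the GC and length trend removed 23 of the nucleolar genes rose and 3 fell, against 21.2% and 18.4% of all genes, and their median was 0.19. No correlation with MYC across libraries is given, because the 6 libraries form 2 clusters of 3.

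**Figure D3:**
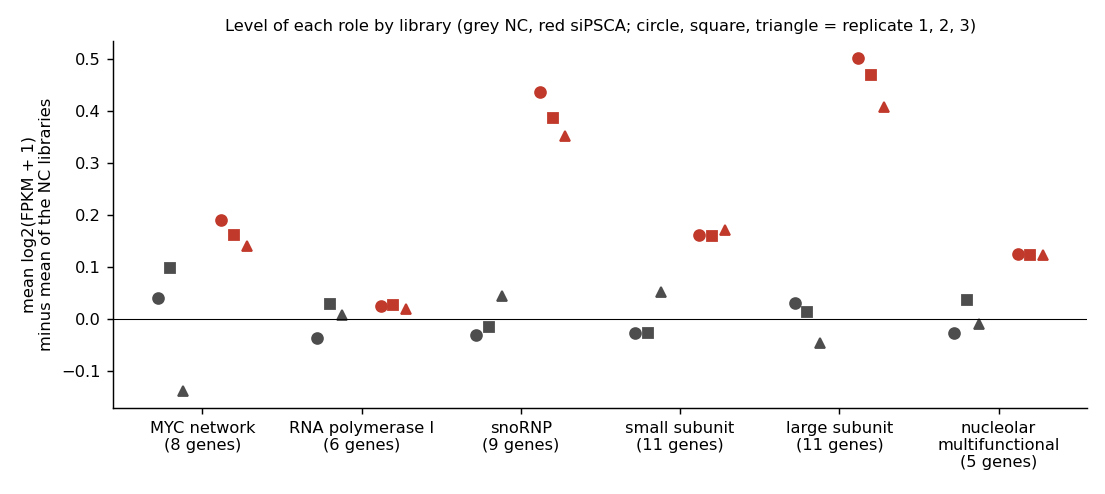
Mean log2(FPKM + 1) over the tested genes of each role, minus the mean of the NC libraries (vertical axis), in NC (grey) and siPSCA (red) libraries, with circles, squares and triangles for replicates 1, 2 and 3. The snoRNP and large subunit genes are raised most, by 0.35 to 0.50, and the RNA polymerase I genes lie at 0.02 to 0.03, within the range of the NC libraries.

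RNA polymerase I transcribes the rRNA precursor. Of its 6 genes 2 rose (33.3%), 1 fell (16.7%) and 3 did not pass (median log2 fold change 0.07). The 50% that passed lay near the 50.7% of all genes tested, of which 26.6% rose and 24.2% fell. POLR1A, the largest subunit of the enzyme, had an FPKM of 8.35, 8.89 and 8.95 in NC and 12.1, 11.4 and 10.8 in siPSCA (log2 fold change 0.36 ± 0.06 SE, limma adjusted p = 0.00496), and it was 0.34 with the GC trend removed. UBTF, which opens rRNA genes and recruits the enzyme, had 16.5, 17.6 and 15.9 in NC and 21.6, 21.5 and 21.4 in siPSCA (0.35 ± 0.05 SE, limma adjusted p = 0.00353), which was 0.15 with the trend removed and lost its call when the replicate block was added to that fit (adjusted p = 0.0533). The groups of both genes were apart. TAF1D, a subunit of the promoter factor SL1 on chromosome 11 from 93729948 to 93784391, went the other way, from 26.5, 27.7 and 29.4 to 16.9, 16.9 and 17.2 (log2 fold change -0.68 ± 0.05 SE, limma adjusted p = 0.000700), and remained lower with the trend removed (-0.32). The second largest subunit POLR1B (0.10), the subunit POLR1C shared with RNA polymerase III (-0.02) and the initiation factor RRN3 (0.04) did not pass. With the GC trend removed POLR1B and RRN3 did, at 0.22 and 0.24, while POLR1C was at 0.06. RRN3 has 3 pseudogene rows with a summed FPKM of 3.14 in NC and 3.04 in siPSCA, beside 30.2 and 31.03 for the gene itself.

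The snoRNPs guide the chemical modification of rRNA. Of their 9 genes 5 rose (55.6%) and none fell (median 0.28), against 26.6% and 24.2% of all genes tested. The same number rose with the GC trend removed, against 21.2% of all genes. The largest rises were in the H/ACA particle, which converts uridine to pseudouridine and also stabilizes telomerase RNA. NHP2, on chromosome 5 from 178149460 to 178153967, stood at an FPKM of 13.6, 12.7 and 17.3 in NC and 39.0, 37.6 and 34.0 in siPSCA, a ratio of means of 2.54 and the largest rise of the whole group (log2 fold change 1.30 ± 0.12 SE, limma adjusted p = 0.000948; 1.03 with the GC trend removed). Its exons share 27.42% of their bases with RMND5B on the opposite strand, whose log2 fold change was 0.52. NOP10, on chromosome 15 from 34341713 to 34343177 and with the E-box shown above, had 56.0, 54.0 and 45.1 in NC and 93.7, 82.5 and 88.0 in siPSCA (log2 fold change 0.76 ± 0.09 SE, limma adjusted p = 0.00196). Its rise was larger with the trend removed, at 0.88.

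The other subunits of the particle moved less. DKC1, the pseudouridine synthase itself, had 28.5, 28.96 and 33.2 in NC and 38.6, 37.4 and 34.8 in siPSCA (log2 fold change 0.28, limma adjusted p = 0.0230; 0.24 with the trend removed). GAR1 had 16.0, 18.4 and 19.7 in NC and 18.2, 17.1 and 18.1 in siPSCA, which overlapped (-0.01, adjusted p = 0.911). The FPKM ratio of NHP2 to GAR1 accordingly went from 0.851, 0.688 and 0.877 in NC to 2.14, 2.20 and 1.87 in siPSCA. That of NOP10 to GAR1 went from 3.50, 2.93 and 2.29 to 5.14, 4.83 and 4.86.

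In the box C/D particle, which adds methyl groups to ribose, NOP56 had an FPKM of 41.1, 40.9 and 42.5 in NC and 57.0, 55.8 and 53.3 in siPSCA (log2 fold change 0.41 ± 0.05 SE, limma adjusted p = 0.00166; 0.32 with the GC trend removed). Its close relative NOP58 had 42.0, 42.2 and 43.2 in NC and 39.3, 41.1 and 40.7 in siPSCA (-0.07, adjusted p = 0.198). The ratio of NOP56 to NOP58 was 0.979, 0.969 and 0.984 in NC and 1.45, 1.36 and 1.31 in siPSCA, that is, near equal FPKM in all controls. The methyltransferase FBL missed the threshold (0.13, adjusted p = 0.0599) and was at -0.09 with the GC trend removed, whereas NOP58 then passed at 0.12. RRP9, a component of the U3 particle that helps to cut the rRNA precursor, rose by a log2 fold change of 0.64 (adjusted p = 0.00381), which was 0.20 and no longer past the threshold with the trend removed (adjusted p = 0.0545). The scaffold NOLC1 did not pass (0.11, adjusted p = 0.287; 0.07 with the trend removed). Without NC 3 both FBL and NOLC1 passed, at 0.13 and 0.18.

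Of 11 genes of small subunit maturation 5 rose (45.5%), 2 fell (18.2%) and 4 did not pass (median 0.19). Over all genes tested 26.6% rose and 24.2% fell. NOL6, a component of the early processome, had an FPKM of 7.34, 6.57 and 5.26 in NC and 11.8, 11.9 and 10.7 in siPSCA (log2 fold change 0.76 ± 0.11 SE, limma adjusted p = 0.00331; 0.44 with the GC trend removed). BYSL, a factor of the late nuclear precursor, had 13.4, 12.9 and 12.7 in NC and 23.0, 21.8 and 20.7 in siPSCA (0.71 ± 0.06 SE, limma adjusted p = 0.000704; 0.38). In both genes the lowest siPSCA library lay well above the highest control. The export factor RRP12 (0.41), the processome component UTP4 (0.22) and the nuclease NOB1 (0.19) also rose. With the trend removed UTP4 was at 0.27 and still past the threshold, RRP12 at 0.10 and NOB1 at -0.03, neither of them past it.

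The 2 genes that fell did so by little. WDR43, a processome component, had 37.7, 38.6 and 42.9 in NC and 31.2, 32.7 and 36.6 in siPSCA (log2 fold change -0.24 ± 0.08 SE, limma adjusted p = 0.0458). LTV1, which is released late in maturation, had 17.4, 17.9 and 20.4 in NC and 14.4, 15.8 and 15.6 in siPSCA (-0.27 ± 0.07 SE, limma adjusted p = 0.0258). With the GC trend removed these values were -0.01 and -0.03 and neither passed, so that no small subunit gene was then lower. WDR43 also lost its call without NC 3, as with several other single libraries left out, where its log2 fold change was -0.18. NOP14 (0.20), UTP15 (0.09), UTP20 (-0.09) and HEATR1 (-0.17) did not pass, all of them processome components, and without NC 3 NOP14 passed at 0.29. With the trend removed UTP15 passed at 0.41, UTP20 at 0.17, while HEATR1 was at 0.11 and NOP14 at 0.06 without passing. HEATR1 shares 23.15% of its exon bases with LGALS8 on the opposite strand.

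Large subunit maturation held the highest median of the roles, 0.49, with 8 of 11 tested genes higher (72.7%) and 1 lower (9.09%). Over all genes tested 26.6% were higher and 24.2% lower. With the GC trend removed 7 genes of this role were higher and 1 lower (median 0.27), against 21.2% and 18.4% of all genes. BOP1, on chromosome 8 from 144262102 to 144291370, stood at an FPKM of 27.2, 25.5 and 19.5 in NC and 51.5, 51.9 and 46.3 in siPSCA (log2 fold change 1.03 ± 0.13 SE, limma adjusted p = 0.00184). Its transcript had the highest GC content of the group, 65.2%, and the log2 fold change was 0.33 with the trend removed, still past the threshold. RRS1, which brings a ribosomal RNA particle into the precursor and lies on chromosome 8 from 66429028 to 66430733, had 15.4, 15.3 and 15.2 in NC and 31.7, 29.4 and 28.99 in siPSCA (0.93 ± 0.05 SE, limma adjusted p = 0.000278; 0.67 with the trend removed). The NC libraries of RRS1 were almost equal, NC 3 included.

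BOP1 works in the PeBoW complex with PES1 and WDR12, which is needed to trim the rRNA of the large subunit. PES1 had 22.9, 22.6 and 19.9 in NC and 31.7, 31.7 and 29.4 in siPSCA (log2 fold change 0.49, limma adjusted p = 0.00279; 0.12 with the trend removed). WDR12 had 8.06, 9.10 and 10.4 in NC and 8.61, 8.71 and 9.67 in siPSCA, which overlapped (-0.02, adjusted p = 0.864), but rose by 0.30 with the trend removed (adjusted p = 0.0126). On FPKM the subunits therefore moved unequally, with a BOP1 to WDR12 ratio of 3.37, 2.80 and 1.88 in NC and 5.98, 5.96 and 4.79 in siPSCA. With the trend removed BOP1 and WDR12 had nearly the same log2 fold change.

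WDR74 (0.80), NOP16 (0.60), RRP1 (0.49), SURF6 (0.38) and NIP7 (0.30) also rose, all of them assembly factors of the large subunit precursor. RRP1 was at 0.02 and NOP16 at 0.37 (adjusted p = 0.0524) with the GC trend removed, and neither then passed, whereas WDR74, SURF6 and NIP7 did. GNL3 (nucleostemin), a GTPase abundant in stem cells, was the large subunit gene that fell, from 61.0, 65.1 and 74.5 to 50.5, 51.2 and 53.6 (log2 fold change -0.36 ± 0.08 SE, limma adjusted p = 0.0122; -0.17 with the trend removed). PPAN did not pass (0.41, adjusted p = 0.166), with 0.944 in NC 3 beside 2.42 and 2.20 in the other controls, and 56.02% of its exon bases are shared with the read-through gene PPAN-P2RY11. The rRNA methyltransferase NOP2 lay under the minimum, with an FPKM of 0.521, 0.441 and 0.458 in NC and 0.832, 0.840 and 0.586 in siPSCA (adjusted p = 0.191 from limma without a minimum). Of its exon bases 54.41% are shared with another annotated gene on the same strand, AC006064.6, so that its level is uncertain.

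Among the 5 multifunctional nucleolar proteins 2 rose (40%) and 2 fell (40%), with a median of -0.04, against 26.6% and 24.2% of all genes tested. NPM1 (nucleophosmin), a chaperone of ribosomal and histone proteins, lies on chromosome 5 from 171387116 to 171411137. Its FPKM was the highest of the group, at 319, 339 and 390 in NC and 247, 240 and 258 in siPSCA (log2 fold change -0.48 ± 0.08 SE, limma adjusted p = 0.00496, and -0.36 with the GC trend removed). The genome holds 45 pseudogene rows of NPM1, 17 of them with a read, whose summed FPKM was 55.9 in NC and 30.5 in siPSCA, so that reads may have been divided among near-identical copies. NPM3, a related protein, had 49.3, 54.1 and 33.4 in NC and 74.4, 73.5 and 68.6 in siPSCA (0.68 ± 0.17 SE, limma adjusted p = 0.0192; 0.54 with the trend removed). The NPM3 to NPM1 ratio rose from 0.155, 0.160 and 0.0857 in NC to 0.301, 0.306 and 0.266 in siPSCA.

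MYBBP1A, a MYB-binding protein that moves between the nucleolus and the nucleoplasm, had 13.9, 14.1 and 10.04 in NC and 21.7, 21.8 and 20.7 in siPSCA (log2 fold change 0.72 ± 0.13 SE, limma adjusted p = 0.00536; 0.28 with the GC trend removed). The helicase DDX21 had 63.0, 64.1 and 77.5 in NC and 55.0, 56.1 and 58.8 in siPSCA (-0.26 ± 0.09 SE, limma adjusted p = 0.0488), which was -0.16 without NC 3 and -0.02 with the trend removed. NCL (nucleolin), with the second highest FPKM of the group, had 140, 145 and 195 in NC and 153, 154 and 154 in siPSCA. Its groups overlapped only through NC 3 (-0.04, adjusted p = 0.810), and without NC 3 its log2 fold change was 0.11 and passed the threshold.

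The FPKM ratio of 12 pairs of genes in these complexes was compared between the groups by exact permutation tests, of which 11 gave p = 0.1, the smallest p possible (adjusted p = 0.109 over the 12 pairs), and none passed. The differences in mean log2 ratio, siPSCA minus NC, were 2.04 for MXD4 to MXD1, 1.37 for NHP2 to GAR1, 1.18 for NPM3 to NPM1, 1.09 for BOP1 to WDR12 and 0.49 for NOP56 to NOP58. Base composition moved with these ratios too, since the gene that rose had the higher GC content in each of these pairs. For NOP10 to GAR1, by contrast, the difference was 0.79 at near equal GC content (48.0% and 47.1%). The part of base composition in the ratios was not tested.

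Across the 50 genes the log2 fold change and GC content had a Spearman correlation of 0.815, which was 0.230 with the trend removed. Over the 13792 tested genes with a GC value it was 0.664. Genes are not independent replicates, and these values only describe the 6 libraries. The median GC content was 55.2% in the genes of the group that rose, 41.6% in those that fell, 46.4% in those that did not pass and 48.1% over all genes tested. NC 3 moved along the same axis, as its deviation from the other controls had a correlation of -0.649 with GC content across the group. NC 3 was the lowest or highest control in 46 of the 50 genes, and it was the control farthest from the siPSCA mean in 31 and the nearest in 13. Of the 34 calls 23 were kept with the trend removed, and 6 genes passed only then (POLR1B, RRN3, NOP58, UTP15, UTP20 and WDR12), all of them higher in siPSCA. Calls of MAX, MNT, MGA, RRP9, WDR43, LTV1, NOB1, RRP12, NOP16, RRP1 and DDX21 were lost. Whether the trend came from library preparation or from the cells cannot be told apart with these libraries.

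**Figure D4:**
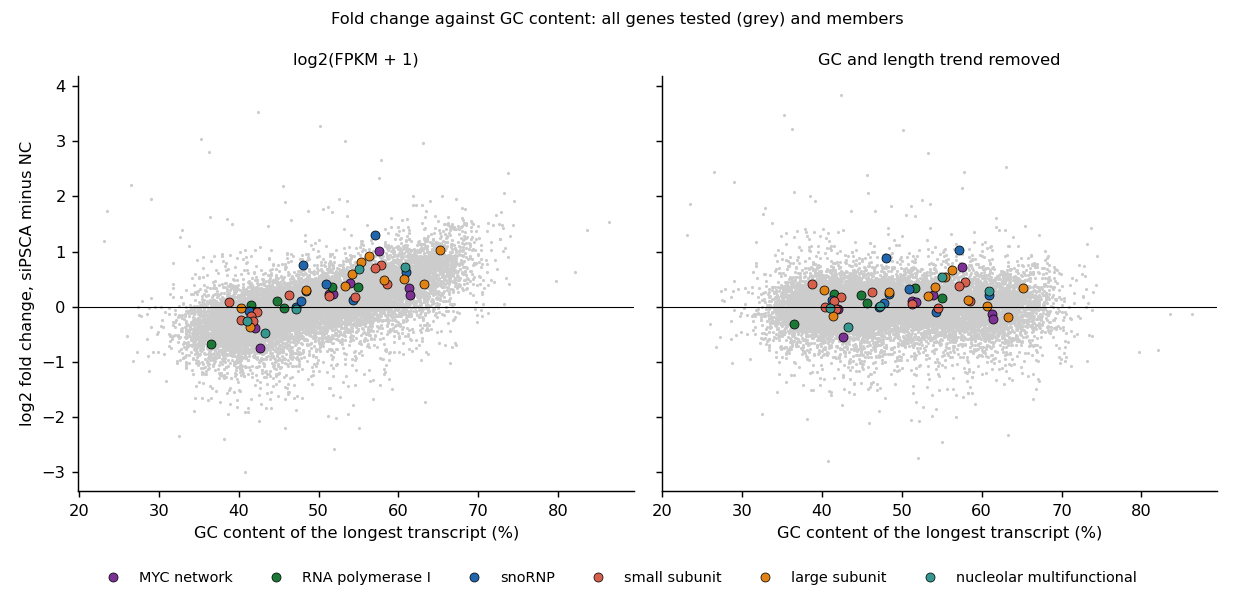
Log2 fold change (siPSCA minus NC, vertical axis) against the GC content of the longest transcript (percent, horizontal axis) for all tested genes (grey) and the 50 genes of the group (colored by role), on log2(FPKM + 1) at left and with the GC and length trend removed at right. The genes of the group climb with GC content at left (Spearman correlation 0.815), a slope that is mostly gone at right (0.230).

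Of the 34 calls 16 stood in each of the 16 other fits in which the gene was tested, which differed in scaling, filters, the trend, the block and the libraries left out. MXD1 lay under the minimum of the fit that required a mean FPKM of 5 and was not tested there. The 12 higher were MYC, MXD4, POLR1A, NOP56, NHP2, NOP10, NOL6, BYSL, BOP1, WDR74, RRS1 and MYBBP1A, and the 4 lower were MXD1, TAF1D, GNL3 and NPM1.

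Wider lists of the same pathways, written by hand, were read for the same comparison. Over all genes tested 50.7% passed, 26.6% higher and 24.2% lower. Of 17 tested genes of the wider MYC network 6 rose (35.3%) and 5 fell (29.4%), with a median of 0.11, or -0.08 with the GC trend removed. MXI1, another MAX partner of the MXD type, fell from an FPKM of 24.8, 24.5 and 25.8 to 10.8, 9.60 and 10.2 (log2 fold change -1.21 ± 0.06 SE, limma adjusted p = 0.000168; -1.09 with the trend removed). This was a larger fall than that of MXD1, from a higher FPKM. BPTF, a chromatin remodeling factor, fell by 0.62 on the log2 scale. MLXIPL, a glucose-responsive partner of MLX, and WDR5, a chromatin cofactor, rose by 0.61 and 0.49. With the trend removed BPTF was at -0.36, MLXIPL at 0.02 and WDR5 at 0.21, and MLXIPL no longer passed. NC 3 was the lowest control for MLXIPL (7.15 beside 12.4 and 12.2), and without it the log2 fold change was 0.38.

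Of 17 further RNA polymerase I genes 6 rose (35.3%) and none fell (median 0.07), but with the GC trend removed 5 rose and 1 fell (median 0.07), and 3 rose in both. POLR2L, a subunit shared by all 3 nuclear polymerases, led the rises (1.36, or 1.004 with the trend removed), with TAF1C of SL1 (1.01, or 0.51). TAF1C had 11.5, 10.5 and 5.08 in NC and 18.1, 19.2 and 17.5 in siPSCA, opposite in direction to TAF1D of the same complex. Of 48 further small subunit genes 20 rose (41.7%) and 9 fell (18.8%), with a median of 0.05. Of 64 further large subunit genes 20 rose (31.25%) and 13 fell (20.3%), with a median of 0.02, and the 51.6% that passed lay near the share of all genes. These medians lay near that of all genes and, on FPKM, below those of the genes described above. With the GC trend removed they were 0.10 and 0.11, with 16 and 17 genes higher and 6 and 4 lower. The small and large subunit genes described above then had medians of 0.11 and 0.27, so little of the gap was left for the small subunit. TSR3, an rRNA-modifying enzyme, and the helicase DDX49 had the largest rises among the former (1.05 and 0.89), and ESF1 and the kinase RIOK3 the largest falls (-1.003 and -0.61). EIF6, which keeps the subunits from joining too early, and WDR18 led the rises of the latter (0.92 and 0.90), and NOC3L and RSL24D1 the falls (-0.61 and -0.60). With the trend removed TSR3 and WDR18 did not pass (0.36 and 0.18), and DDX49 and EIF6 were at 0.35 and 0.60. ESF1, RIOK3, NOC3L and RSL24D1 were then at -0.74, -0.37, -0.32 and -0.33.

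MYC targets outside the nucleolus were read in the same way. Of 47 tested genes that MYC is known to induce, in nucleotide, folate and polyamine metabolism among others, 26 rose (55.3%) and 6 fell (12.8%), with a median of 0.29 (21 and 6, median 0.13, with the GC trend removed). The largest rises were those of the folate carrier SLC19A1, from an FPKM of 3.26, 2.40 and 1.79 to 7.43, 7.02 and 6.59 (log2 fold change 1.22, limma adjusted p = 0.00198; 0.67 with the trend removed), and of IMPDH1, an enzyme of guanine nucleotide synthesis (0.85, or 0.26). The largest falls were those of POLR3G, a subunit of RNA polymerase III (-0.58, or -0.31 with the trend removed), and the pseudouridine synthase PUS7 (-0.31, or -0.12 and not passing).

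Of 15 tested genes that MYC is known to repress 8 rose (53.3%) and 5 fell (33.3%), with a median of 0.24 (0.11 with the GC trend removed, 6 higher and 6 lower). FTH1, the heavy chain of ferritin, rose most, from an FPKM of 105, 84.3 and 22.8 to 624, 599 and 524 (log2 fold change 3.28 ± 0.54 SE, limma adjusted p = 0.00457; 3.21 with the trend removed), followed by the secreted chaperone CLU (0.95, or 0.86). NC 3 lay far below the other controls for FTH1, without it the log2 fold change was 2.61, and FTH1 has near-identical pseudogene copies that may share its reads. NDRG1, a stress-responsive gene, fell from 219, 228 and 232 to 56.5, 54.7 and 54.7 (-2.01 ± 0.04 SE, limma adjusted p = 1.45e-05; -2.08 with the trend removed), followed by the cyclin CCNG2 (-0.94, or -0.65). The genes listed as induced and those listed as repressed by MYC thus both held more rises than falls on FPKM, and no test of the difference between the lists was made.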

How the data were processed

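RNA of HCT116SCs was sequenced in 3 NC and 3 siPSCA libraries, grouped by their labels. The deposited table, made by the authors, gives FPKM for 58735 genes. The aligner, the counting program and the use of strand are not given in the sources used here. The coordinates of all 58735 matched GENCODE release 29 on GRCh38. FPKM times gene length was a whole multiple of a step (within 0.01 reads) for 100% of values in each library, so reads were recovered, 16099716 to 17302219 per library. No columns were left unused (0).

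The linear model of limma 3.58.1 (lmFit, eBayes with a mean-variance trend, R 4.3.3) was fitted to log2(FPKM + 1) with group as the only term, on 13796 genes, those whose mean FPKM reached 1. P-values were adjusted after Benjamini and Hochberg over these genes, and a call is an adjusted p under 0.05. Each adjusted p given for one gene is limma's. PSCA and NOP2 were taken from the fit without the minimum. For the GC and length trend, splines with 5 degrees of freedom each for the GC content of the longest transcript and for log length were subtracted from each library. Exact permutation tests, promoter searches and figures were made with Python 3.11.15, pandas 2.3.3, scipy 1.17.1 and matplotlib 3.10.9. Promoters came from RefSeq (GRCh38.p14).

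The genes and lists were chosen with earlier results of these data known. All genes of the group are counted. Named in full are the MYC network and the 2 largest rises and 2 largest falls of each other role among called genes without overlap. Genes whose call or direction changed with the trend removed are given at least with their fold changes. The other genes of the group are named with their fold change so that all are accounted for, as are the subunits in the complex ratios, both chosen after their values were seen. In each wider list the 2 largest rises and falls are named. In reads simulated for siPSCA against NC over 13796 genes, 171 of 200 genes changed by 1 on the log2 scale were recovered (85.5%) with 15 false calls, and 37 of 200 changed by 0.5 (18.5%) with 3 false calls. With none changed there were 0 calls. The simulated reads had the same dispersion for every gene, no GC trend and no outlying library, so these rates may not hold for the real libraries. Alternatives were another pseudocount, minimum, scaling, test, threshold and trend, a replicate block, and each library left out.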

Additional observations from a re-analysis of the deposited data

How the results depend on the processing

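Genes of the group that were lower numbered 8, but 5 without a minimum FPKM, and 4 with the GC and length trend removed, with or without the replicate block. Where calls needed a log2 fold change over 0.5 and an unadjusted p under 0.05, 12 genes of the group were higher and 2 lower, against 2027 (14.7%) and 1407 (10.2%) of all genes, and MYC at 0.44 did not pass. Of all genes, 2140 were lower with a minimum mean FPKM of 5, and 2197 with the block and the trend removed together. With single libraries left out, 19 to 29 genes of the group were higher and 5 to 7 lower, and 2299 to 4014 and 2328 to 3411 of all genes. MYC then lay between 0.377 and 0.472 and kept its call. The fits without siPSCA 1 and without siPSCA 2 called 19 genes of the group higher and 5 lower, and 2299 and 2402 of all genes higher. Each lost the same 10 calls, of MAX, MNT, DKC1, WDR43, UTP4, LTV1, NOB1, NIP7, NPM3 and DDX21.

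Some signs turned, among them those of MNT, NOB1, WDR43 and DDX21, which had been called. With TPM RRN3 was at -0.0068. With TMM factors POLR1C, GAR1 and WDR12 were at 0.00646, 0.013 and 0.00206, and in limma-voom on recovered reads at 0.00715, 0.013 and 0.0031. With the trend removed, with or without the block, values were -0.14 for MXD3, -0.22 for MNT, 0.0605 for POLR1C, -0.0863 for FBL, 0.12 for NOP58, 0.00257 for GAR1, 0.17 for UTP20, 0.11 for HEATR1, -0.0307 for NOB1, 0.30 for WDR12, -0.19 for PPAN and 0.00499 for NCL. Without NC 3 and with the trend removed they were -0.34 for MXD3, -0.11 for MNT, 0.000862 for POLR1C, -0.048 for FBL, 0.10 for NOP58, 0.0517 for GAR1, 0.0177 for WDR43, 0.20 for UTP20, 0.15 for HEATR1, 0.35 for WDR12, -0.29 for PPAN, 0.14 for NCL and 0.0413 for DDX21. With single libraries left out, POLR1C ranged from -0.0545 (without NC 3) to 0.0252 (without NC 2), GAR1 from -0.0923 (without NC 1) to 0.0507 (without NC 3), WDR12 from -0.103 (without NC 1) to 0.0618 (without NC 3) and NCL from -0.13 (without NC 1) to 0.111 (without NC 3). The cause of these turns was not tested.

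Nothing states whether equal replicate numbers pair the libraries. The deviations of equal numbers from their group means correlated at 0.0955, 0.0132 and 0.134. NC 1 and NC 3 correlated best with siPSCA 1 and siPSCA 3, but NC 2 with siPSCA 1 (0.0363). Such weak values in groups of 3 cannot decide whether the libraries were paired. With the replicate block 23 genes of the group were higher and 8 lower (3572 and 3153 of all genes), the calls of MNT, DKC1 and NOB1 were lost, and MYC remained at 0.44. With the block and the trend removed 19 genes of the group were higher and 4 lower. A quasi-likelihood count test planned on recovered reads was not run. Read depth limits NOP2, with 36 to 70 reads per library.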

Other observations

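Genes that overlap exons of the group on the opposite strand had these values: PRELID1, which overlaps MXD3, had a log2 fold change of 1.27, COG8, which overlaps NIP7, 0.52, and TCN2, which overlaps PES1, 0.75. LGALS8, which overlaps HEATR1, was at -0.66. Whether reads were exchanged between these genes and their neighbours was not tested. Of 9 colorectal epithelial markers 7 were tested, of which 3 were higher and 2 lower in siPSCA, and 1 higher and 3 lower with the GC and length trend removed. CD44, one of the sorted surface proteins, had a mean FPKM of 82.6 in NC and 60.7 in siPSCA (log2 fold change -0.44, adjusted p = 0.00193 from limma, and -0.29 with the trend removed), and EPCAM, which is CD326, had 107 and 95.0 (adjusted p = 0.199). CDX2, an intestinal transcription factor, had 2.15 and 4.08 (log2 fold change 0.70, adjusted p = 0.00387, and 0.39 with the trend removed). These neighbours, CD44 and CDX2 were chosen after their values were seen.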
